A study of Mus musculus with 6 samples.

Results

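The genes described here are 35 genes of the NF-kB pathway and of inflammatory cytokines, taken by symbol from the 24054 genes of the deposited tables, and all 35 were found there. By role they are 5 NF-kB subunits, 8 inhibitors and feedback regulators, 7 adaptor, kinase and survival genes, 6 cytokines, 5 surface molecules and 4 other targets. They were measured by sequencing of polyadenylated RNA in mouse macrophages grown from bone marrow, in 4 groups and 6 libraries. Wild-type C57BL/6 cells gave 1 untreated library and 1 library after 24 hours with 50 μg/ml oxidised low-density lipoprotein (oxLDL), the modified particle that turns macrophages into foam cells. Cells of C57BL/6-Kindlin3-integrin mutant mice gave 2 untreated libraries and 2 oxLDL libraries. The mutant titles read KI, and the labels give neither the altered residue nor the age or sex of the mice. All cultures, treated or not, were grown for 7 days with L929-conditioned medium, a fibroblast supernatant that supplies macrophage colony-stimulating factor. The study asked how mutant and wild-type macrophages differ in gene expression under oxidative stress. Separate animals or cultures are not stated for the libraries of a group, and the p-values then cover just the variation among these libraries, which may be technical.

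NF-kB is a family of dimeric transcription factors built from the subunits RelA, c-Rel, RelB, p50 (from Nfkb1) and p52 (from Nfkb2). In resting cells inhibitors of the kappa B family (IkB) hold the dimers back. Signals from Toll-like and tumour necrosis factor receptors pass through adaptors and ubiquitin chains to the IkB kinases, which mark IkB for destruction. Freed dimers bind kappa B sites and induce cytokines and adhesion molecules, and also their own inhibitors, such as IkB alpha and A20 (Tnfaip3), so that transcript levels of those inhibitors are widely read as an output of the pathway. In atherosclerosis, macrophage NF-kB is studied as a link between lipid loading and inflammation.

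Promoter sequence was available for 26 of the 35 genes, in windows of 300 bases around RefSeq starts (GRCm38.p6, 250 before and 50 after). Nfkbiz, Relb, Nfkb1, Il10, Il23a, Malt1, Ripk2, Cd40 and Cd86 were not matched. At least 1 match to the kappa B consensus, searched on both strands, lay in the window of 18 of these 26 genes (69.2%), against 29.35% of 27025 genes with a window. Many of the 35 genes are textbook NF-kB targets, so these shares describe the set, and a match is not evidence of binding. The stretches below come from genes whose RNA changed with oxLDL in the mutant and were picked by hand to cover a subunit, inhibitors, a cytokine, an adhesion molecule and a gene that rose. Each shows the match of its window that lies nearest before the start, and other genes of the set, such as Il6, Bcl3 and Rel, also had matches. They run 5′ to 3′ along the gene's strand, end before the start, and have every complete match in capitals. They lie at chr19:46304686-46304736 (plus strand, Nfkb2), chr12:55492648-55492716 (minus, Nfkbia), chr17:45555554-45555628 (plus, Nfkbie), chr10:19015411-19015462 (minus, Tnfaip3), chr11:54962962-54963038 (minus, Tnip1), chr17:35202167-35202241 (minus, Tnf), chr9:21015780-21015854 (plus, Icam1) and chr12:111442597-111442660 (plus, Tnfaip2).
Nfkb2: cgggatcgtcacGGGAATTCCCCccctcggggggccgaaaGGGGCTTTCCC
Nfkbia: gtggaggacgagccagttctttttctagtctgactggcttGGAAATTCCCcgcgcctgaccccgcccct
Nfkbie: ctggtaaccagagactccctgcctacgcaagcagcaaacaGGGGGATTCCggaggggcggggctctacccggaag
Tnfaip3: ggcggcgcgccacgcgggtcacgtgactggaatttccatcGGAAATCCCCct
Tnip1: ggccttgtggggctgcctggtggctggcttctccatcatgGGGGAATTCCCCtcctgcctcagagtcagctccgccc
Tnf: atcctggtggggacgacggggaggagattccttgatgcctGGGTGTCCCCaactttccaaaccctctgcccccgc
Icam1: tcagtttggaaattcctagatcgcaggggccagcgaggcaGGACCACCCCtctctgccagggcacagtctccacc
Tnfaip2: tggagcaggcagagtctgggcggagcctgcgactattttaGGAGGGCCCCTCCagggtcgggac

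Libraries held between 11281692 and 24273551 counts assigned to genes. Levels are given in CPM (counts scaled to a common library total), with totals set by library size and a trimmed-mean (TMM) factor, and are compared between libraries for 1 gene at a time. Fermt3, which encodes kindlin-3, measured 241 and 249 CPM in the mutant untreated, 403 in the wild-type untreated, 146 and 153 in the mutant oxLDL and 188 in the wild-type oxLDL library. It was lower in untreated mutant cells by edgeR's test (-0.72 ± 0.11 on the log2 scale, adjusted p = 0.0264), which ended without mutant untreated replicate 1 (0.0916) or 2 (0.0579), and the labels do not say whether the mutation alters its RNA. All 8 macrophage markers set for the check were present in every library, with a summed level between 10090 and 30400 CPM that was lowest in the wild-type oxLDL library. Emr1 (F4/80) measured 4426, 4418 and 6187 CPM in the untreated and 823, 816 and 1096 CPM in the oxLDL libraries. Csf1r, Itgam, Fcgr1 and Cd14 were likewise lower in every oxLDL library than in every untreated one, Cd68 and Mertk were higher in every oxLDL library, and Lyz2 overlapped. The part of these shifts in the results below was not tested. Summed markers of dendritic cells, lymphocytes, fibroblasts and mast cells reached at most 10.02 CPM in any library. The sum of 7 neutrophil markers was 39.2 CPM in the wild-type untreated library and at most 2.24 CPM in the others. A sum of 10 pancreatic genes, a list made with earlier results of these data known, came to 170.5 and 136 CPM in the mutant oxLDL and 231 CPM in the wild-type untreated libraries, against at most 0.0708 CPM elsewhere. Their distribution over the 4 groups is that of the genotype-by-treatment interaction, so the interaction and this sign of foreign RNA cannot be told apart. Both mutant oxLDL libraries carry it, so oxLDL in the mutant cannot be given without them.

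After oxLDL most of the 35 genes were lower in the mutant macrophages. Of the 35 genes, 32 passed a filter on low counts, and 25 of these passed edgeR's quasi-likelihood test at a false discovery rate of 5%, with 23 lower and 2 higher. Of all 12689 genes tested 35.6% were called, 19.1% lower and 16.5% higher. The median log2 fold change was -0.98 over the 32 genes and 0.01 over all genes tested. Apart from Il6, which had 0 counts in both treated libraries and is given below as a bound, the largest falls were those of Nfkbiz (41.7-fold), Il10 (31.1-fold), Marcksl1 (12.2-fold), Bcl3 (8.49-fold) and Tnf (7.97-fold), and Tnfaip2 rose 2.75-fold. Without mutant untreated replicate 2 the test called 19 of the 35 genes and 2626 of all genes, against 25 and 4515 with it. In bulk RNA a lower share of cells that express a gene and a lower level per cell cannot be told apart.

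**Figure D1:**
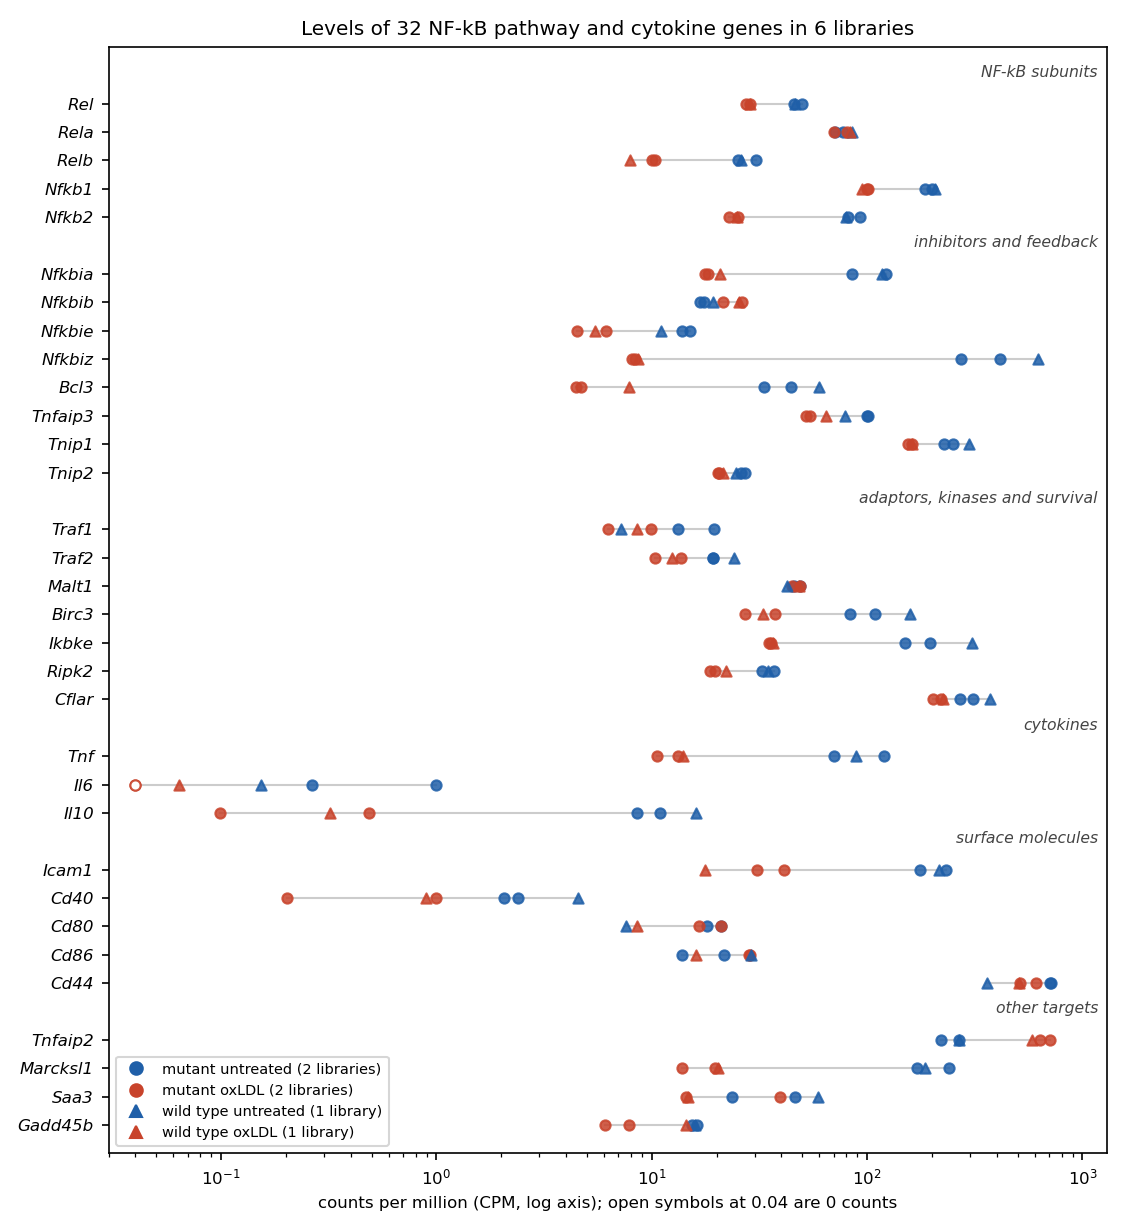
Level of each of the 32 genes that passed the filter on low counts, in CPM on a log axis, with 1 symbol per library (circles mutant, triangles wild type, blue untreated, red oxLDL) and genes grouped by role. For 23 genes all 3 red symbols lie to the left of the blue ones and for Nfkbib and Tnfaip2 to the right, while those of Rela and Malt1 lie together.

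Among the NF-kB subunits, 4 of 5 fell with oxLDL in the mutant and the fifth, Rela, did not pass. Nfkb2, which encodes the p100 precursor of p52, measured 81.3 and 93.1 CPM in untreated and 25.3 and 22.8 CPM in oxLDL-treated mutant cells, with 80.2 and 24.9 CPM in wild type. On the log2 scale the mutant changed by -1.86 ± 0.12 (SE; adjusted p = 0.000421), and the treated and untreated libraries do not overlap in either genotype. Relb, the partner of p52, measured 25.1 and 30.5 CPM without and 9.98 and 10.3 CPM with oxLDL in the mutant, and 25.9 and 7.93 CPM in wild type (-1.45 ± 0.15, adjusted p = 0.00152). Nfkb1, the source of p50, measured 185 and 199.5 against 99.4 and 101 CPM in the mutant and 206 against 94.9 CPM in wild type (-0.94 ± 0.09, adjusted p = 0.00118). Treated levels of Nfkb1 and Relb were thus lowest in the wild-type oxLDL library. Rel, which encodes c-Rel, fell least of the 4, from 45.6 and 50.1 to 28.6 and 27.3 CPM in the mutant, with 46.3 and 28.6 CPM in wild type (-0.78 ± 0.11, adjusted p = 0.00347). Rela, the main transactivating subunit, measured between 70.2 and 85.5 CPM in all 6 libraries, changed by 0.02 ± 0.11 on the log2 scale in the mutant (adjusted p = 0.903), and had treated and untreated values that overlap.

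All 8 inhibitors and feedback regulators passed in the mutant, 7 lower and 1 higher. Nfkbiz, which encodes the nuclear IkB zeta needed for a secondary set of cytokine genes, measured 273.7 and 413.5 CPM in untreated and 8.35 and 8.12 CPM in oxLDL-treated mutant cells, and 624 and 8.63 CPM in wild type. Its log2 fold change in the mutant was -5.38 ± 0.24 (adjusted p = 0.000216), and the 3 treated libraries lie within a narrow range while the untreated ones differ more. Bcl3, another nuclear IkB protein that works with p50 and p52, fell from 33.2 and 44.5 to 4.46 and 4.71 CPM, with 60.05 and 7.80 CPM in wild type (-3.08 ± 0.18, adjusted p = 0.000379). Nfkbia, the gene of IkB alpha and the classical feedback target, fell from 85.2 and 122 to 17.6 and 18.3 CPM, with 117 and 20.8 CPM in wild type (-2.53 ± 0.19, adjusted p = 0.000600). The stretch before its start shown above holds 1 kappa B match. Nfkbie (IkB epsilon) measured 15.1 and 13.8 CPM without and 6.12 and 4.51 CPM with oxLDL in the mutant, and 11 and 5.43 CPM in wild type (-1.44 ± 0.21, adjusted p = 0.00416).

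The regulators that act on ubiquitin chains fell by less. Tnfaip3 (A20), a ubiquitin-editing enzyme, measured 99.7 and 101 CPM in untreated and 51.8 and 54.2 CPM in treated mutant cells, and 78.6 and 64.2 CPM in wild type (-0.92 ± 0.09, adjusted p = 0.00128). Tnip1, an A20-binding protein gene, measured 227 and 250.2 against 155 and 161 CPM in the mutant and 298 against 161 CPM in wild type (-0.60 ± 0.10, adjusted p = 0.00599). Both sets of treated libraries lie below the untreated ones. Tnip2, a related A20-binding protein gene, went from 26.0 and 27.0 to 20.2 and 20.4 CPM in the mutant and from 24.7 to 21.5 CPM in wild type (-0.38 ± 0.11, adjusted p = 0.0414), and its call ended when any 1 mutant library was left out (adjusted p 0.1 to 0.189). Nfkbib (IkB beta), the inhibitor gene in this set that was higher, measured 16.7 and 17.6 CPM without and 21.5 and 26.3 CPM with oxLDL in the mutant, and 19.2 and 25.4 CPM in wild type. Its log2 fold change of 0.48 ± 0.15 had an adjusted p of 0.0492, which became 0.0534 with another scaling (RLE), 0.158 with DESeq2, 0.170 without mutant untreated replicate 1, 0.147 without replicate 2, 0.164 without mutant oxLDL replicate 2, and 0.0531 and 0.0509 without the wild-type untreated and oxLDL libraries.

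Of the 7 adaptor, kinase and survival genes 6 fell in the mutant. Ikbke, which encodes a kinase related to the IkB kinases that also serves interferon induction, measured 150.2 and 195 CPM without and 35.2 and 35.7 CPM with oxLDL, and 307 and 36.4 CPM in wild type (-2.29 ± 0.15, adjusted p = 0.000419). Birc3 (cIAP2), a ubiquitin ligase of the tumour necrosis factor receptor complex, measured 82.9 and 108.5 against 27.1 and 37.2 CPM in the mutant and 158 against 32.9 CPM in wild type (-1.58 ± 0.20, adjusted p = 0.00278). For both genes the wild-type untreated library was the highest of the 6. Ripk2, the kinase downstream of NOD receptors, measured 32.7 and 36.9 against 18.7 and 19.6 CPM in the mutant and 34.7 against 22.1 CPM in wild type (-0.86 ± 0.12, adjusted p = 0.00355). Cflar (c-FLIP), an inhibitor of caspase 8, measured 270.3 and 309 against 219.5 and 202 CPM in the mutant and 372 against 225 CPM in wild type (-0.46 ± 0.11, adjusted p = 0.0220), and leaving out mutant untreated replicate 2 (adjusted p = 0.0969) or mutant oxLDL replicate 2 (0.106) ended this call.

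Traf1 and Traf2 encode TNF receptor-associated factors. Traf2 measured 19.2 CPM in both untreated mutant libraries and 10.4 and 13.6 CPM with oxLDL, and 24.2 and 12.4 CPM in wild type (-0.68 ± 0.17, adjusted p = 0.0271). Its call ended without mutant untreated replicate 1 (adjusted p = 0.101), mutant untreated replicate 2 (0.112) or mutant oxLDL replicate 1 (0.0605). Traf1, itself a frequent NF-kB target, measured 13.2 and 19.5 against 6.25 and 9.91 CPM in the mutant (-1.03 ± 0.29, adjusted p = 0.0398), whereas wild type measured 7.21 CPM untreated and 8.50 CPM with oxLDL, so the treatments overlap over all 6 libraries. That call ended without mutant untreated replicate 2 (0.201) or mutant oxLDL replicate 1 (0.0700). Malt1, the paracaspase of the CARD-BCL10 complex, measured between 42.5 and 48.8 CPM in the 6 libraries, and oxLDL changed it by -0.01 ± 0.10 on the log2 scale (adjusted p = 0.932).

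The cytokine genes were measured at very different depths. Tnf measured 69.9 and 120 CPM in untreated and 10.6 and 13.3 CPM in oxLDL-treated mutant cells, and 88.4 and 14 CPM in wild type, with a log2 fold change in the mutant of -2.99 ± 0.28 (adjusted p = 0.00115). Every treated library lay below every untreated one, although the untreated mutant pair was widely spaced. Il10, the gene of the main anti-inflammatory cytokine of macrophages, measured 8.56 and 10.97 CPM without and 0.487 and 0.0991 CPM with oxLDL in the mutant, and 16.1 and 0.320 CPM in wild type (-4.96 ± 0.48, adjusted p = 0.00125). Its treated levels rest on 12, 2 and 5 counts. The inflammatory and the anti-inflammatory cytokine gene were thus both lower after oxLDL in both genotypes.

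Interleukin 6 and the interleukin 12 family were barely detected. Il6 had 3 and 14 counts in the untreated and 0 counts in both oxLDL-treated mutant libraries, and 3 and 1 counts in the wild-type pair. Against a floor of 3 counts over the treated pair it was at least 9.98-fold lower in treated mutant cells. This bound takes the 17 pooled untreated counts as exact. Separately, edgeR's test called Il6 lower (adjusted p = 0.0387). Il6 passed the filter on low counts only through mutant untreated replicate 2, where it was highest, so this call carries little weight. The call ended without mutant untreated replicate 1, mutant oxLDL replicate 1 or mutant oxLDL replicate 2. Il12a (p35), Il12b (p40) and Il23a (p19) had at most 2 counts in any library and were not tested. A floor of 3 counts corresponds to between 0.122 and 0.265 CPM per library, so changes of these 3 genes were not detectable at this depth.

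Of the 5 surface molecules 1, Icam1, passed edgeR's test in the mutant with TMM scaling, the filter on low counts and no replicate block. With no filter on low counts Cd40 (-1.915, adjusted p = 0.00369) and Cd86 (0.704, 0.00127) passed too. Cd86 also passed with scaling by library size alone (0.691, 0.0387). The calls with replicate numbers as a block are given with the processing alternatives. Icam1, the adhesion ligand of beta 2 integrins, measured 176 and 233 CPM in untreated and 41.0 and 30.7 CPM in oxLDL-treated mutant cells, and 215 and 17.6 CPM in wild type (-2.51 ± 0.20, adjusted p = 0.000688). Treated and untreated libraries were far apart in both genotypes, and the wild-type oxLDL library was the lowest. Cd40, a co-stimulatory receptor, measured 2.38 and 2.05 against 0.203 and 0.991 CPM in the mutant and 4.55 against 0.895 CPM in wild type. Its log2 fold change of -1.93 ± 0.67 missed the threshold (adjusted p = 0.0710), and leaving out mutant oxLDL replicate 2 brought it past (-3.39, adjusted p = 0.00603). The co-stimulatory ligand Cd86 measured 21.6 and 13.8 against 28.5 and 28.3 CPM in the mutant and, in the other direction, 29.0 against 16.0 CPM in wild type. In the mutant this was 0.69 ± 0.21 (adjusted p = 0.0517), and 1.06 without mutant untreated replicate 1 (adjusted p = 0.0134). Cd80, the related ligand, did not pass (-0.06 ± 0.18, adjusted p = 0.824). The hyaluronan receptor gene Cd44 did not pass edgeR's test (-0.34 ± 0.12, adjusted p = 0.0800) and passed that of DESeq2 (-0.35, adjusted p = 0.0385).

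The 4 other targets moved in both directions. Tnfaip2, a gene induced by tumour necrosis factor whose product acts in membrane protrusions, was the member that rose most, from 268 and 220.0 to 633 and 709 CPM in the mutant, with 266 and 581 CPM in wild type (1.46 ± 0.14, adjusted p = 0.00114). All 3 treated libraries lay above all untreated ones, opposite to most genes of the set. Marcksl1, which encodes an actin-binding substrate of protein kinase C, measured 171 and 239 against 19.7 and 13.9 CPM in the mutant and 185 against 20.4 CPM in wild type (-3.61 ± 0.24, adjusted p = 0.000443). Gadd45b, a stress-induced survival gene, measured 16.2 and 15.4 against 7.83 and 6.04 CPM in the mutant (-1.18 ± 0.18, adjusted p = 0.00507) and 15.9 against 14.4 CPM in wild type. Saa3, an acute-phase serum amyloid gene, varied within groups, at 23.6 and 46.1 against 14.5 and 39.5 CPM in the mutant and 59.2 against 14.7 CPM in wild type. Its change of -0.38 ± 0.51 did not pass (adjusted p = 0.599) and was -1.27 without mutant oxLDL replicate 2 (adjusted p = 0.0362).

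In wild-type cells oxLDL was measured with 1 library per arm, so there is no replicate check and no p-value. Of 30 genes of the set with at least 5 CPM in either library, 14 were at least 2-fold lower and 1, Tnfaip2, at least 2-fold higher. Of the 9840 genes of that level 19.6% were at least 2-fold apart, 11.7% lower and 7.92% higher. By the ratio of CPM, Nfkbiz was 72.3-fold, Il10 50.3-fold, Icam1 12.3-fold, Marcksl1 9.07-fold, Ikbke 8.44-fold and Bcl3 7.70-fold lower. Of the 25 genes called in the mutant, 24 had that level in a wild-type library, and 23 of these had the same sign in wild type. The exception was Traf1, and 14 of the 23 were also at least 2-fold apart in wild type. The mutant and wild-type changes share no library. The same shares over all genes called in the mutant were not computed, so these counts describe the set alone.

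**Figure D2:**
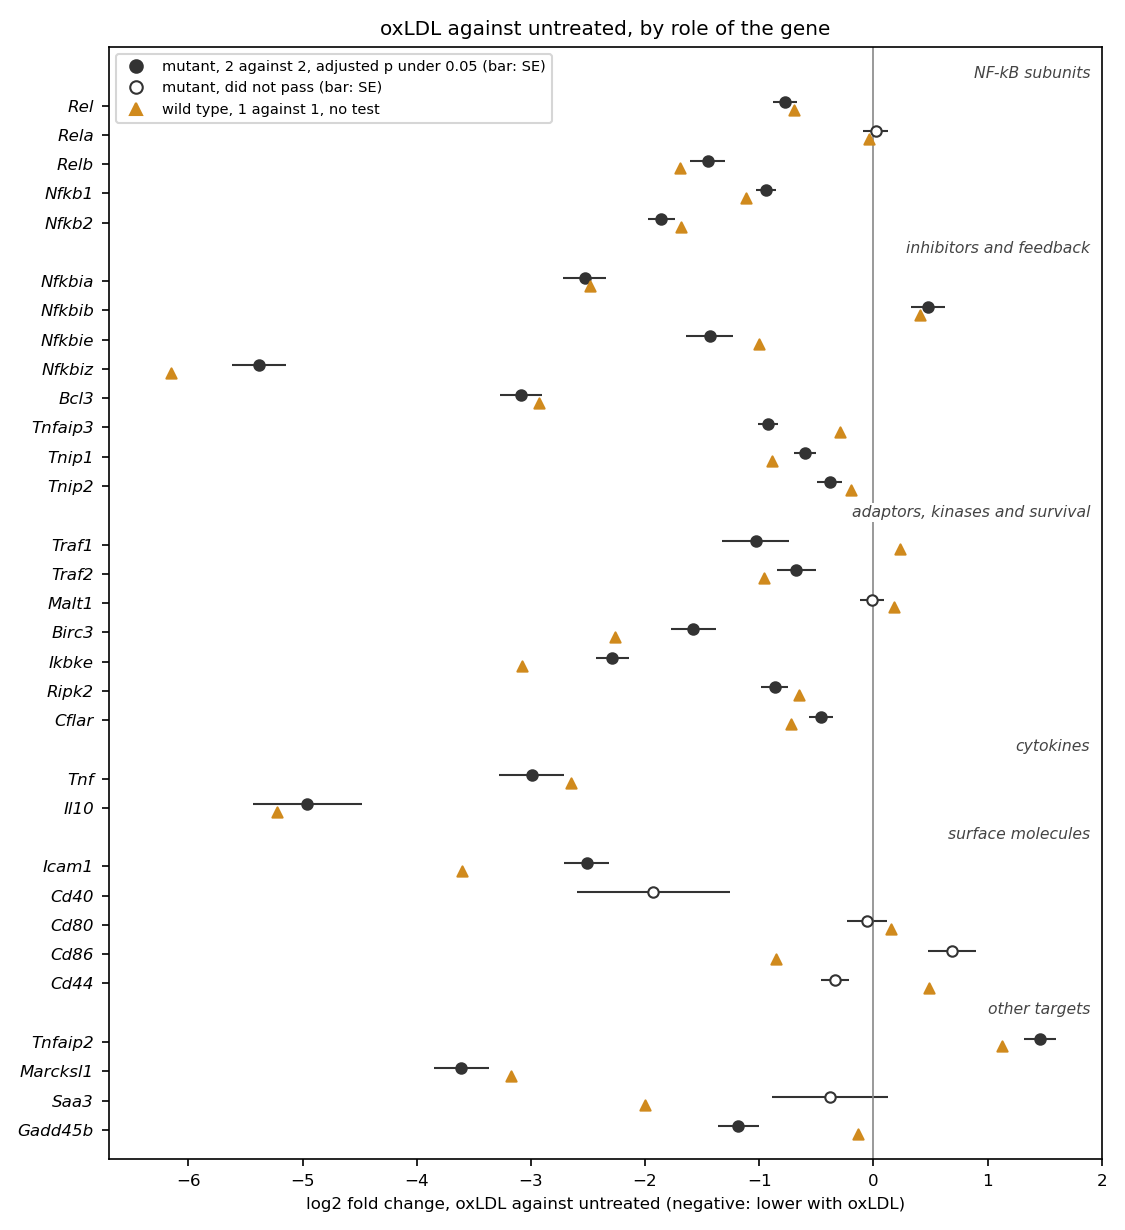
Log2 fold change with oxLDL for 31 genes by role (Il6, with 0 counts in the treated mutant pair, is left out), with circles for the mutant (filled where the adjusted p is under 0.05, bars are SE) and triangles for wild type where a library had at least 5 CPM. Nfkbiz and Il10 lie farthest to the left in both genotypes and Tnfaip2 farthest to the right, while the symbols of Traf1, Cd86 and Cd44 lie clearly on opposite sides of 0.

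With genotype as a term, all 3 oxLDL libraries were compared with all 3 untreated ones. Again 25 of the 32 genes passed, 23 lower and 2 higher, where 40.5% of all genes were called, 21.4% lower and 19.1% higher. This comparison shares the mutant libraries with the preceding ones. In 25 of the 32 genes the 3 treated and 3 untreated libraries did not overlap, against 47.8% of all genes tested (23.3% lower and 24.5% higher). On the log2 scale Nfkbiz changed by -5.64 ± 0.26 (adjusted p = 7.64e-05), Tnf by -2.88 ± 0.23 (0.000302), Icam1 by -2.86 ± 0.27 (0.000535) and Tnfaip2 by 1.35 ± 0.13 (0.000542). Cd40 passed here (-2.07 ± 0.53, adjusted p = 0.0217), and Traf1 did not (-0.62 ± 0.33, adjusted p = 0.179). The other genes without a call were Rela, Malt1, Cd80, Cd86, Cd44 and Saa3. Saa3 passed without mutant oxLDL replicate 2 (-1.58, adjusted p = 0.0156), and Traf1 without the wild-type untreated (-1.04, 0.0370) or the wild-type oxLDL library (-1.03, 0.0397). Calls of Cd40, Gadd45b, Il6, Nfkbib and Tnip2 ended under at least 1 alternative, among them leaving out a library. For Cd40 this was either mutant untreated library (0.0608 and 0.0655) or either wild-type library (0.0791 and 0.0706), and for Gadd45b or Tnip2 any mutant library (0.0848 to 0.112 and 0.0902 to 0.122). For Il6 it was either mutant oxLDL library (0.131 and 0.106), and for Nfkbib either mutant untreated (0.0743 and 0.0694) or either wild-type library (0.0531 and 0.0509).

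Between genotypes few genes of the set differed. In untreated cells Cd80 and Cd44 were higher and Ikbke was lower in the mutant than in the wild-type library, 3 of 32 genes, where 7.06% of all genes were called (4.24% higher and 2.82% lower). Cd80 measured 21.0 and 18.0 CPM in the 2 mutant libraries and 7.62 CPM in wild type, 1.35 ± 0.23 apart on the log2 scale (adjusted p = 0.0329), and Cd44 measured 706 and 711 against 361 CPM (0.97 ± 0.16, adjusted p = 0.0301). Ikbke measured 150.2 and 195 against 307 CPM (-0.83 ± 0.16, adjusted p = 0.0420). All 3 calls ended without mutant untreated replicate 1 (adjusted p 0.113 for Cd80, 0.0949 for Cd44 and 0.0916 for Ikbke), and those of Cd80 (0.0691) and Cd44 (0.0699) also without replicate 2. Scaling by library size alone shifted the median log2 fold change of all genes by 0.14 and moved the share of calls that were higher in the mutant from 60.0% to 79.8%, and Ikbke then did not pass (-0.69, adjusted p = 0.0653).

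DESeq2 called 4 genes of the set in untreated cells, the same 3 and Nfkbiz, where it called 1301 of all 12689 genes. With edgeR and the filter on low counts, Nfkbiz, Birc3 and Traf1 did not pass. Without that filter all 3 passed (adjusted p = 0.000219, 0.00214 and 0.00307), among 8 genes of the set and 2438 of all genes. Nfkbiz measured 273.7 and 413.5 CPM in mutant against 624 CPM in wild-type cells (-0.86 ± 0.23, adjusted p = 0.0780 with edgeR and 0.0102 with DESeq2), and Birc3 82.9 and 108.5 against 158 CPM (-0.72 ± 0.23, adjusted p = 0.111). Traf1 measured 13.2 and 19.5 against 7.21 CPM (1.19 ± 0.38, adjusted p = 0.110). Each of these 3 passed edgeR's test when mutant oxLDL replicate 1 was left out (adjusted p = 0.0391, 0.0313 and 0.0259), Nfkbiz also without mutant untreated replicate 2 (-1.19, 0.0280), and Birc3 (0.0434) and Traf1 (0.0361) also without mutant oxLDL replicate 2. The wild-type untreated library is the 1 with the raised neutrophil sum and with pancreatic transcripts, and their part in these differences was not tested.

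Among oxLDL-treated cells no gene of the set passed edgeR's test between genotypes with the filter on low counts. Of all genes 0.481% were called. An unadjusted p under 0.05 came up for 6 of the 32, against 1819 of all 12689 genes tested. DESeq2 called 2, Cd80 and Icam1, against 391 of all genes. Without that filter edgeR called 5 genes of the set and 975 of all genes. Among the 5 were Icam1 (adjusted p = 0.00035), Cd80 (0.00127) and Gadd45b (0.00219). In treated cells Cd80 stood at 20.9 and 16.5 CPM for the mutant and 8.50 CPM for wild type (1.14 ± 0.23, adjusted p = 0.124 with edgeR and 0.0468 with DESeq2). Icam1 measured 41.0 and 30.7 against 17.6 CPM (1.03 ± 0.26, adjusted p = 0.174 and 0.0105), and both passed edgeR's test without mutant oxLDL replicate 2 (0.0247 and 0.0377). Gadd45b was 7.83 and 6.04 CPM in mutant against 14.4 CPM in wild-type treated cells (-1.05 ± 0.21, adjusted p = 0.121, and 0.0394 without mutant oxLDL replicate 1). For Cd44 the treated mutant levels were 608 and 515 CPM and the wild-type level 505 CPM (0.15 ± 0.15, adjusted p = 0.685). Ikbke measured 35.2, 35.7 and 36.4 CPM in the 3 treated libraries, so its untreated difference had no counterpart there.

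Across both treatments Cd80 was the 1 gene of the set that passed edgeR's test between genotypes, where 4.03% of all genes were called (2.52% higher and 1.51% lower). Its 4 mutant libraries lay between 16.5 and 21.0 CPM and its 2 wild-type libraries at 7.62 and 8.50 CPM, which is 1.25 ± 0.16 on the log2 scale (adjusted p = 0.0236). The call ended without mutant untreated replicate 1 (0.0685), mutant untreated replicate 2 (0.101) or the wild-type untreated library (1.15, adjusted p = 0.114). Mutant and wild-type libraries also did not overlap for Cd44, higher in the mutant, and Rela, lower, which makes 3 of 32 genes against 16.3% of all genes tested (8.49% higher and 7.78% lower). On the log2 scale the genotypes differed for Cd44 by 0.54 ± 0.20 (adjusted p = 0.160), for Ikbke by -0.47 ± 0.19 (0.205) and for Bcl3 by -0.69 ± 0.14 (0.0524). DESeq2 called 2 genes of the set, Cd80 and Bcl3 (adjusted p = 0.00695 for Bcl3), against 1513 of all genes. Bcl3 also passed edgeR's test with no filter on low counts (0.0094), where 2 genes of the set and 1391 of all genes passed. Without the wild-type oxLDL library Cd44 (0.97, adjusted p = 0.0302) and Ikbke (-0.83, 0.0425) passed, which leaves only the untreated wild-type library on that side. Scaling by library size alone moved the share of all calls that were higher in the mutant from 62.5% to 78.3%.

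**Figure D3:**
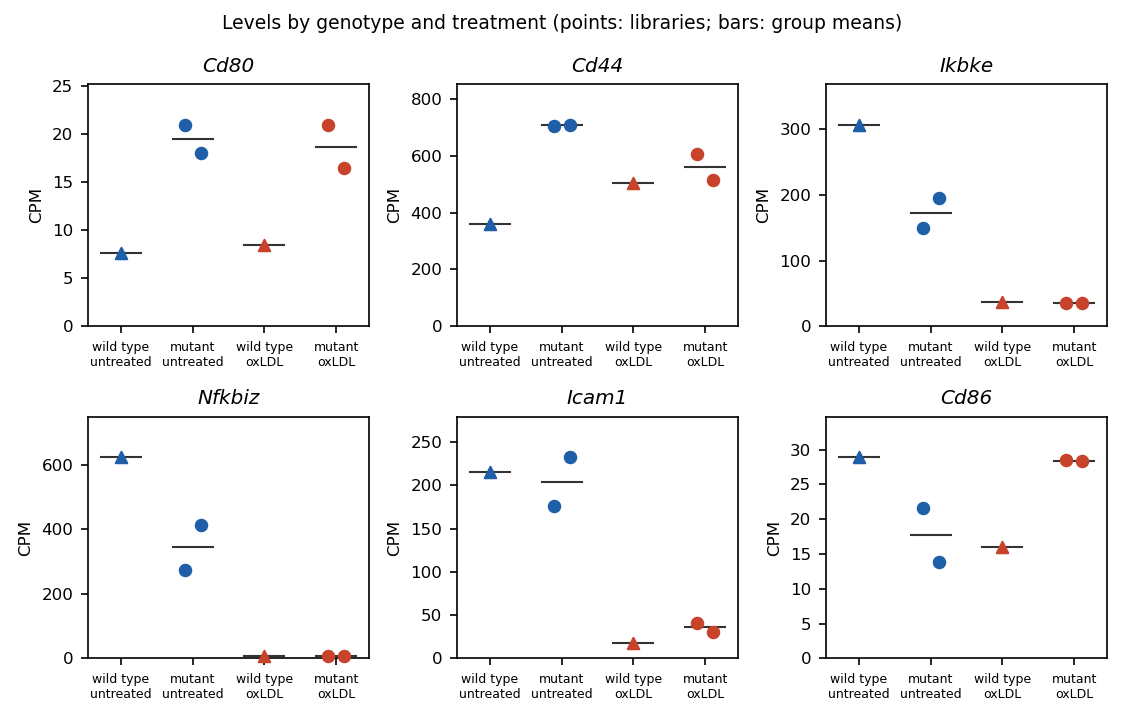
Levels in CPM on linear axes from 0 of 6 genes in each library (points), by genotype and treatment, with bars at group means. Cd80 is higher in all 4 mutant libraries (16.5 to 21.0 CPM) than in the 2 wild-type ones (7.62 and 8.50 CPM), Ikbke and Nfkbiz differ among untreated libraries and meet after oxLDL, and Cd86 goes up in mutant and down in wild-type cells.

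With the filter on low counts, edgeR's test of the difference in oxLDL response between genotypes called none of the 32 genes. Of all genes 0.489% were called. An unadjusted p under 0.05 came up for 6 of the 32, against 1393 of all 12689 genes tested. DESeq2 called 1, Cd44 (adjusted p = 0.0376), against 221 of all genes. Without that filter edgeR called 5 genes of the set and 550 of all genes. Among the 5 were Cd86 (adjusted p = 0.000924), Icam1 (0.00595), Ikbke (0.0362) and Cd44 (0.0433). Cd44 measured 361 CPM without and 505 CPM with oxLDL in wild type and went from 706 and 711 to 608 and 515 CPM in the mutant, a difference in log2 fold change of -0.82 ± 0.21 (adjusted p = 0.268 with edgeR). For Cd86 the difference was 1.55 ± 0.37 (adjusted p = 0.236), for Icam1 1.10 ± 0.34 (0.330), for Gadd45b -1.04 ± 0.30 (0.304), for Ikbke 0.79 ± 0.24 (0.335) and for Tnfaip3 -0.63 ± 0.16 (0.250). That of Nfkbiz was 0.79 ± 0.38 (0.508). Each rests on 1 wild-type library per arm, and none shows that the genotypes respond alike.

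The wider pathway was described with 50 further genes from receptor-proximal adaptors to IkB kinases and ubiquitin enzymes. All 50 were tested, and with oxLDL in the mutant 20 fell, 8 rose and 22 did not pass, with a median log2 fold change of -0.18. Of all genes tested 19.1% were called lower and 16.5% higher, so the share that rose was near that of all genes. The largest falls were those of Tnip3, a further A20-binding protein gene, at 167 and 205 against 15.5 and 11.4 CPM (-3.78 ± 0.19, adjusted p = 0.000285), and of Irak3 (IRAK-M), a negative regulator of Toll-like receptor signalling, at 247.5 and 259 against 45.9 and 57.8 CPM (-2.29 ± 0.14, 0.000370). Zc3h12a (Regnase-1), an RNase that degrades cytokine transcripts, and Myd88, the main Toll-like receptor adaptor, followed with -2.17 ± 0.16 (0.000609) and -1.61 ± 0.10 (0.000419). In wild type these 4 genes were 8.34-fold, 7.40-fold, 9.29-fold and 3.70-fold lower with oxLDL. Those that rose most were the deubiquitinase gene Otud7b (1.23 ± 0.14, adjusted p = 0.00198), Tax1bp1, an A20 partner and autophagy receptor (0.98 ± 0.11, 0.00213), Ikbkg (NEMO), the regulatory subunit of the IkB kinase complex (0.92 ± 0.11, 0.00238), and Peli2, a ubiquitin ligase gene (0.86 ± 0.18, 0.0155). In untreated cells 4 of the 50 (Myd88, Tirap, Irak3 and Irak4) were lower in the mutant, where 7.06% of all genes were called and 2.82% were lower. All 4 calls ended when either mutant untreated library was left out (adjusted p 0.081 to 0.138), and those of Myd88, Tirap and Irak3 also with scaling by library size alone (0.0667 to 0.0957). Between genotypes across treatments 1 of the 50 passed, where 4.03% of all genes were called and 1.51% were lower. It was Irak4, the kinase that MyD88 recruits, at 60.1, 55.4, 44.9 and 40.6 CPM in the mutant libraries against 99.3 and 58.8 CPM (-0.62 ± 0.11, adjusted p = 0.04). Its genotype call ended when any library other than the wild-type oxLDL one was left out (adjusted p 0.0527 to 0.190).

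Of 25 other cytokine genes 14 were tested, and with oxLDL in the mutant 6 fell and 3 rose, with a median log2 fold change of -1.01. Of all genes tested 19.1% were called lower and 16.5% higher. The lymphotoxin beta gene Ltb measured 1.41 and 4.32 against 0.284 and 0.198 CPM (-3.54 ± 0.66, adjusted p = 0.00993) and in wild type 13.7 CPM against 0 counts, at least 71.2-fold lower. This bound rests on the wild-type untreated library, which has the raised neutrophil sum and pancreatic transcripts. Their part in it was not tested. Tnfsf15 (TL1A) fell by 2.73 ± 0.34 on the log2 scale, Tnfsf10 (TRAIL) by 1.72 ± 0.26 and Tnfsf13b (BAFF) by 1.47 ± 0.25 (adjusted p = 0.00272, 0.00484 and 0.00704). Tnfsf12 (TWEAK), with 45.8% of its sequence shared with a readthrough gene and so uncertain, rose by 1.15 ± 0.15 (0.00339). Il15 rose by 0.62 ± 0.18 (0.0414), a call that ended when any mutant library was left out (0.0700 to 0.190), and Il16 by 0.60 ± 0.11 (0.00979). Csf1, which encodes macrophage colony-stimulating factor, differed between genotypes across treatments, at 20.1, 16.8, 49.0 and 21.4 CPM in mutant against 3.94 and 11.4 CPM in wild-type libraries (1.89 ± 0.37, adjusted p = 0.0479), a call that ended when any library except mutant oxLDL replicate 2 was left out (0.0698 to 0.237).

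Of 14 cytokine and TNF family receptor genes 13 were tested, and with oxLDL in the mutant 6 fell and 2 rose, with a median log2 fold change of -0.43. The shares over all genes tested were 19.1% lower and 16.5% higher, so the share that rose was near that of all genes. Tnfrsf9 (4-1BB) measured 2.29 and 2.48 against 0.162 and 0.0991 CPM (-4.10 ± 0.56, adjusted p = 0.00354), Tnfrsf11a (RANK) 228 and 224 against 60.0 and 46.8 CPM (-2.08 ± 0.14, 0.000443), the death receptor gene Fas 11.7 and 16.0 against 4.34 and 5.15 CPM (-1.55 ± 0.22, 0.00422) and Il10ra, the interleukin 10 receptor subunit, 195 and 219.8 against 82.7 and 94.0 CPM (-1.23 ± 0.11, 0.00106). Il10rb, the other subunit of that receptor, did not pass (0.20 ± 0.13, adjusted p = 0.270). Il6st (gp130), the shared signalling subunit of the interleukin 6 family, rose by 0.65 ± 0.17 (0.0279), and leaving out mutant untreated replicate 2 ended this call (0.0558). Ltbr, the lymphotoxin beta receptor gene, rose by 0.36 ± 0.11 (0.0478), a call that ended with RLE scaling (0.0536) and without mutant untreated replicate 1 (0.164), replicate 2 (0.0985) or mutant oxLDL replicate 2 (0.177). Across treatments Il12rb2, a subunit of the interleukin 12 receptor, and Tnfrsf9 were higher in mutant than in wild-type cells. Il12rb2 measured 33.2, 23.0, 28.7 and 12.9 CPM against 5.78 and 6.14 CPM (2.02 ± 0.38, adjusted p = 0.0447). Tnfrsf9 differed by 3.25 ± 0.63 (0.0472), with 5 and 0 counts in the wild-type pair. The call of Il12rb2 ended when any library except mutant oxLDL replicate 2 was left out (0.0633 to 0.229), and that of Tnfrsf9 without either untreated mutant library, mutant oxLDL replicate 1 or the wild-type untreated library (0.0890 to 0.379).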

How the data were processed

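The authors deposited expected counts per gene from RSEM 1.2.15 on Bowtie2 2.1.0 alignments, per the submitters' processing notes, which list hg19 while the symbols are mouse. The build used for counting was not stated in the sources used here. The authors also deposited a normalised signal made with edgeR, per the same notes, whose values step in whole reads (100.0% of values within a tolerance of 1e-06) equal to the rounded expected counts. Expected counts were rounded, 12689 genes passed filterByExpr, and edgeR 4.0.16 (R 4.3.3) fitted TMM-scaled quasi-likelihood models with 4 group means, or with genotype and treatment as terms, with Benjamini-Hochberg adjustment over all genes. The spread of each lone wild-type library is taken to equal that of the mutant pairs. SE is approximate, the log2 fold change over the root of F. Wild type by size used a prior count of 2. A fit on the reads recovered from that signal had the same input as the main fit. It therefore repeated its 4515 calls for oxLDL in the mutant and is no separate check. The median variance between the 2 mutant libraries of a group was 4.69 (untreated) and 6.8 (oxLDL) times Poisson. Alternatives were RLE and library-size scaling, DESeq2 1.42.0, no filter, a block, the mutant libraries alone, and leaving out each library. The fits were checked on simulated data. Members and lists were chosen with earlier results of these data known. Every member is described. Of the other lists, up to 4 called genes per direction with the largest change are named, for oxLDL in the mutant and for genotype across treatments. Uncertain genes were sought by 75-base stretches shared with other genes in GENCODE M21 transcripts, and among the 35 the share was at most 5.2% (Cflar). The floor of 3 counts covers counting error only.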

Additional observations from a re-analysis of the deposited data

Results flagged for a closer look

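Il16, which encodes a chemoattractant for CD4-bearing cells, had a different oxLDL response in the 2 genotypes by the interaction test of edgeR. It measured 16.6 and 18.6 CPM in untreated and 27.0 and 26.4 CPM in oxLDL-treated mutant cells, against 81.9 and 24.7 CPM in the wild-type pair. The difference in log2 fold change was 2.33 ± 0.19 (adjusted p = 0.0141), and 2.27 (adjusted p = 0.0514) without mutant untreated replicate 1. The gene was singled out after looking at its values. In untreated cells the mutant minus wild-type difference was -2.22 ± 0.13 on the log2 scale (adjusted p = 0.00494), and in treated cells the genotypes differed by 0.11 ± 0.13 (adjusted p = 0.737). With oxLDL Il16 rose in the mutant (0.60 ± 0.11, adjusted p = 0.00979 by edgeR's test), and its highest level was that of the wild-type untreated library. That library also has the raised neutrophil sum (39.2 CPM, against at most 2.24 CPM in the others). It carries pancreatic transcripts as well, which both mutant oxLDL libraries share. The part of the neutrophil and pancreatic transcripts in this pattern was not tested.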

How the results depend on the processing

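Of 25 calls for oxLDL in the mutant 19 were kept under every alternative, and 20 of 25 across genotypes. The shares kept over all called genes were not computed. Leaving out each library gave 19 to 24 genes of the set (2626 to 4529 of all genes) for oxLDL in the mutant, 20 to 24 (3480 to 4529) across genotypes, 0 to 6 (80 to 1822) for genotype in untreated cells, 0 to 2 (5 to 473) in treated cells, 0 to 3 (8 to 876) across treatments, and 0 (19 to 240) for the interaction. With no filter on low counts the last 4 gave 8 (2438), 5 (975), 2 (1391) and 5 (550), and the last 3 with DESeq2 2 (391), 2 (1513) and 1 (221). The cause was not tested. Signs turned only for genes without a call. Leaving out libraries gave ranges for oxLDL in the mutant of -0.076 to 0.116 for Rela, -0.081 to 0.055 for Malt1 (0.001 with no filter), -0.241 to 0.108 for Cd80 and -1.269 to 0.196 for Saa3. With a replicate block 28 genes of the set passed for oxLDL in the mutant, and 5084 of all genes against 4515 without it. Across genotypes the block gave 23 genes of the set, and 4765 of all genes against 5134. In the mutant it added calls of Cd40 (-2.001, adjusted p = 0.0405), Cd86 (0.71, 0.0197) and Cd44 (-0.34, 0.0476). The interaction had 162 calls in all genes. Same-numbered mutant libraries deviated together with a correlation of 0.204 across 12689 genes, which are not independent replicates, but the labels do not say that numbers pair them. No paired analysis was possible for the genotype comparisons because mutant and wild type share only 1 number. Depth limits Il6, Il12a, Il12b, Il23a and treated Il10.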
